A study of Homo sapiens with 13 samples.

Results

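Accessible regions of the distal short arm of chromosome 1 were compared between H82 and H146, which are established lines of human small cell lung cancer (SCLC). The members were all regions that overlapped the first 28 Mb of chromosome 1 on hg38, a stretch that roughly matches band 1p36. It held 3944 of the 206927 H82 regions (1.91%) and 1788 of the 174093 H146 regions (1.03%), on 0.943% of the sequenced bases of the genome. The stretch was picked because H82 had many more regions there than H146 in the same data, so the numbers of regions, their sharing and their widths below are a description and were not tested.

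The assay was ATAC-seq, where a transposase, Tn5, inserts adaptors into open DNA. The design covered 4 untreated H146 libraries and 3 from H146 cells given FHD-286 at 100 nM for 14 days, with 3 untreated and 3 FHD-286 libraries for H82. All samples are labelled WT for genotype. FHD-286 inhibits SMARCA4 and SMARCA2, the ATPases of the SWI/SNF chromatin remodeller. Each line is represented by a single pooled list of regions, so FHD-286 against untreated cells, the spread between cultures and the depth of each library could not be examined, and every value below is 1 value per line. Differences between the lines cannot be told apart from differences in DNA copies, in the number and depth of libraries, or in the sequencing batches of H146, which per the study's methods were 2, with 3 untreated libraries in one and the other 4 H146 libraries in the second.

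The lines were checked against their subtype genes. NEUROD1, the proneural factor that defines the H82 subtype, had a region at its transcription start site (TSS), that is within 1 kb of it, in H82 only. INSM1, SYP, CHGA, NCAM1, POU2F3 and YAP1 had one in both lines. Of 10 markers of immune, stromal and endothelial cells, 5 had no TSS region in either line, 4 had one in both and VWF had one in H82 only.

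Band 1p36 is dense in genes and GC-rich, and is often lost in neuroblastoma and other tumours. It holds candidate tumour suppressors such as CHD5, a chromatin remodeller of neurons, KIF1B, a kinesin, CAMTA1, CASZ1 and TP73, together with ARID1A, a DNA-binding subunit of SWI/SNF. It also carries HES genes, the repressors that act downstream of Notch, and clusters of closely similar genes such as PRAMEF. The stretch examined had 14.2 protein-coding TSSs per Mb against 6.75 in the rest of the genome, and a GC content of 48.9% against 40.8%.

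Stretches of 200 bases from the centres of 6 line-only regions show what kind of sequence was involved. A line-only region is one that no region of the other line overlapped. In the labels, "over the TSS" refers to the whole region and not to the printed bases. The set consists of the 2 widest H82-only and the 2 widest H146-only regions within 1 kb of a coding TSS, with the widest line-only region of each line over 10 kb from any coding TSS, all chosen among regions under 2 kb. Sequences are the plus strand of hg38, 5′ to 3′, and capitals mark matches on either strand to the consensus words CAGATG and CAGCTG (E-boxes), TAATCC (OTX2), TGTTTAC (FOXA), TGANTCA (AP-1), a word of the CTCF core, GGGCGG (GC box) and TGGGAGGC (a word of Alu repeats).
H82-only, over the TSS of GPR157, chr1:9128854-9129053: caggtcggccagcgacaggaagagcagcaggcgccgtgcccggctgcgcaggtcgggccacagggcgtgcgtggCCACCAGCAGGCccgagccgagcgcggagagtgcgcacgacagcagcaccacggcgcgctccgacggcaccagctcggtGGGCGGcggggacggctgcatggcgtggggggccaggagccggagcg
H82-only, upstream of MMEL1, chr1:2634202-2634401: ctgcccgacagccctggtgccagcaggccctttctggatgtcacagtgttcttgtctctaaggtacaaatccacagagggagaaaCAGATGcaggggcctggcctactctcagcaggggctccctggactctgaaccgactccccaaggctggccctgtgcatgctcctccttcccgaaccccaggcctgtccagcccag
H82-only, intron of IGSF21, chr1:18183718-18183917: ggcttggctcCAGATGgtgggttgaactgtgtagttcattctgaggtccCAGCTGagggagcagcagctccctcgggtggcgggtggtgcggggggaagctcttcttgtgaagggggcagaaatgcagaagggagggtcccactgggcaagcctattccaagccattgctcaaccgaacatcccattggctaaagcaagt
H146-only, over the TSS of C1QB, chr1:22652627-22652826: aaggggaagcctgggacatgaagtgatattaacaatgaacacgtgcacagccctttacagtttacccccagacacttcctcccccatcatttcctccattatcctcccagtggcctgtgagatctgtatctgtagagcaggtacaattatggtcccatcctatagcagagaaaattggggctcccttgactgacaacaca
H146-only, upstream of CA6, chr1:8945593-8945792: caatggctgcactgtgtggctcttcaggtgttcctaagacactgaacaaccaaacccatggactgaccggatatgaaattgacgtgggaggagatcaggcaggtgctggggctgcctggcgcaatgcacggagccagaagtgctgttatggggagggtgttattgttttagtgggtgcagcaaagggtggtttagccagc
H146-only, intergenic, nearest to ACTL8, chr1:17833928-17834127: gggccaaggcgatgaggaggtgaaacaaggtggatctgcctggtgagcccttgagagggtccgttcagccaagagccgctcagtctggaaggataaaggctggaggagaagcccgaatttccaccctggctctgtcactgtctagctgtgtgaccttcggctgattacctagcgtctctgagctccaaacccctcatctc

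The sizes of the regions behind these sequences follow from how they were chosen and do not compare the lines. Distal 1p36 had 50 H82-only regions within 1 kb of a coding TSS and only 2 H146-only ones. GPR157, an orphan G protein-coupled receptor, had an H82 region of 1835 bp with 69.5% GC whose centre held matches to the CTCF and GC box words. That region spans the TSS, at position 9129102, but the printed bases lie inside the gene and do not reach it. The nearest H146 region lay 17.8 kb from the TSS. The MMEL1 region measured 1833 bp, started 370 bp from the TSS and held 1 CAGATG match in its central 200 bases. The distal H82 region, of 1988 bp, lay in an intron of IGSF21, a synaptic adhesion gene, 75026 bp from the TSS, and its centre held both E-box words. The H146-only regions measured 302 bp at C1QB, 200 bp at CA6 and 1057 bp at the intergenic site. None of the words matched in the centres of these 3. At C1QB, a complement gene, H82 had a separate region of 200 bp within 1 kb of the TSS.

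H82 had 142 regions per Mb of sequenced bases in distal 1p36 and H146 had 64.6, a ratio of 2.21. Over the whole genome H82 had 1.19 times as many regions as H146. Relative to that, the log2 ratio in distal 1p36 was 0.89 (95% counting interval 0.81 to 0.97). This interval and those below cover counting error only, and neighbouring regions are not independent. By covered bases the contrast was larger. H82 regions covered 4020 kb of the stretch (14.5%) and H146 regions 1452 kb (5.24%), a log2 ratio of 1.20 relative to the genome.

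In numbers, the contrast fell on line-only regions, which follows largely from how sharing is defined. There were 94.7 H82-only regions per Mb in distal 1p36 against 28.04 in the rest of the genome, and 11.0 H146-only regions per Mb against 17.5. For each H146-only region there were 8.57 H82-only regions, compared with 1.60 elsewhere. Shared regions numbered 53.5 per Mb in H146 against 41.7 elsewhere and 47.7 in H82 against 41.7. Since they overlap each other across the lines, their numbers are bound to be close, and nothing is read from this. The ratio of all regions was lower at promoters. Among regions within 1 kb of a coding TSS the log2 ratio was 0.19, and among all others it was 0.99.

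The gene density and base composition of the stretch were set beside it. Chromosome 17, with 14.3 coding TSSs per Mb, had 111 H82 and 88.4 H146 regions per Mb, so distal 1p36 had more H82 and fewer H146 regions than a chromosome of like gene density. Chromosome 19 had 105 and 90.5. The log2 ratio was 0.09 on chromosome 17 (counting interval 0.04 to 0.13) and -0.03 on chromosome 19 (-0.09 to 0.02). Counted per coding TSS, distal 1p36 had 10.0 H82 regions, close to the 10.3 of the rest of the genome, and 4.55 H146 regions against 8.77. The rest of the genome has fewer genes per Mb, however. Chromosome 17 had 7.80 H82 and 6.18 H146 regions per coding TSS, and chromosome 19 had 4.16 and 3.58.

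Bins of 1 Mb with at least 10 regions in both lines together were then sorted by GC content. Of the 28 distal 1p36 bins, 12 had a GC content above 48% and up to 52%. Their median was 174 H82 and 69.5 H146 regions, while 157 bins of that GC content elsewhere had medians of 134 and 116. All 12 bins had a log2 ratio above the median of these bins elsewhere, which was -0.06. In the class above 44% and up to 48%, the 13 bins of distal 1p36 had medians of 103 H82 and 63 H146 regions, against 103 and 81 in 400 bins elsewhere. Bins of this GC content elsewhere had a median log2 ratio of -0.002, and 11 of the 13 lay above it. The stretch was picked on this ratio, so these counts only describe it. Whether base composition accounts for the contrast was not tested.

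**Figure D1:**
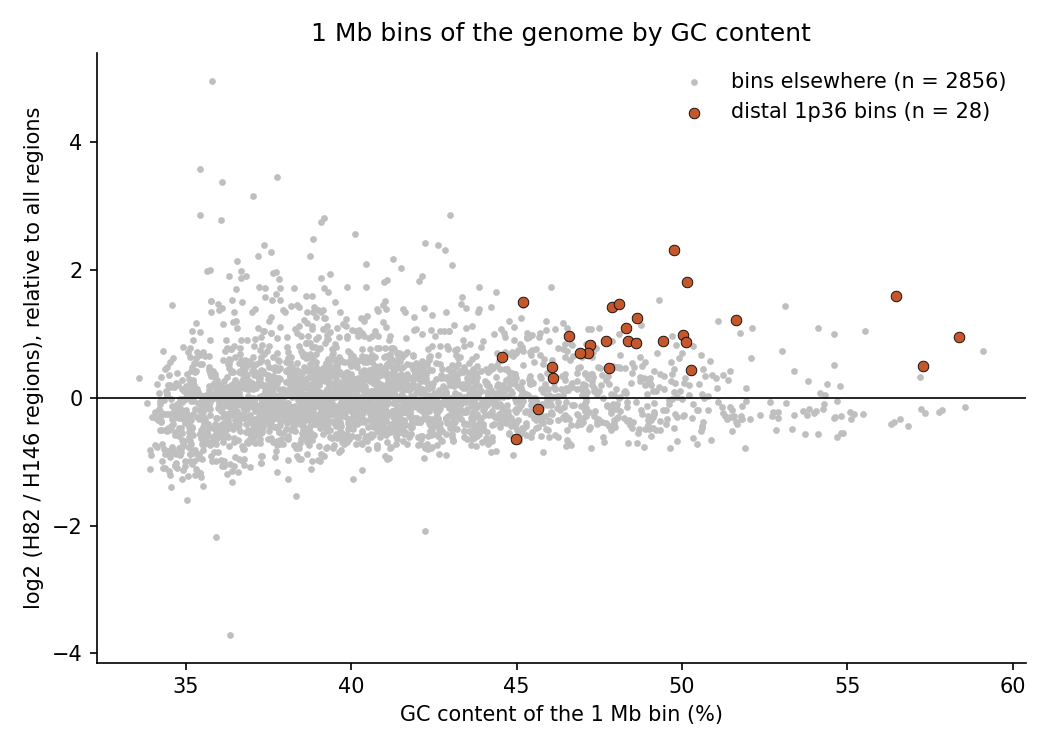
Log2 ratio of H82 to H146 regions, relative to the ratio over all regions (vertical axis), against GC content in percent (horizontal axis), 1 point per 1 Mb bin. Grey points are the 2856 bins elsewhere and coloured points the 28 bins of distal 1p36, of which 26 lie above 0.

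Of the 28 bins, 27 had more H82 than H146 regions, and 26 had a log2 ratio above 0, which 48% of all bins in the genome had. A log2 ratio of 1 or more was reached by 9 of the 28 (32.1%), against 6.55% of all bins. No bin had -1 or less, against 1.53% of all bins. Since the stretch was picked on this contrast, nothing is read from these counts. The ratios ran from -0.65 to 2.31 with a median of 0.89, after 0.5 had been added to each count.

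The highest ratio was that of the bin from 18 to 19 Mb, with 120 H82 and 20 H146 regions (2.31). It holds PAX7, a paired-box factor of muscle and neural crest. The bins from 9 to 10 Mb (206 and 49 regions, 1.81), 3 to 4 Mb (227 and 63, 1.59), 13 to 14 Mb (58 and 17, 1.49) and 10 to 11 Mb (155 and 47, 1.46) followed. These bins differ in gene content. The bin from 3 to 4 Mb holds PRDM16 and TP73, whereas that from 13 to 14 Mb holds part of the PRAMEF cluster, whose near-identical copies make the placement of reads uncertain. The fewest regions in either line lay between 4 and 5 Mb, a bin with AJAP1 as its single coding TSS, with 17 in H82 and 5 in H146.

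Only 2 bins had a ratio below 0. Between 14 and 15 Mb H82 had 40 regions and H146 had 53 (-0.65), in a bin without a coding TSS that is mostly taken up by KAZN, a gene of epithelial cell junctions. There H82 regions were shared at 67.5% and H146 regions at 50.9%, the reverse order of the other 27 bins. The first Mb, next to the telomere, had 88 and 84 regions (-0.18). The third lowest was the bin from 20 to 21 Mb, with 103 and 70 regions (0.30).

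**Figure D2:**
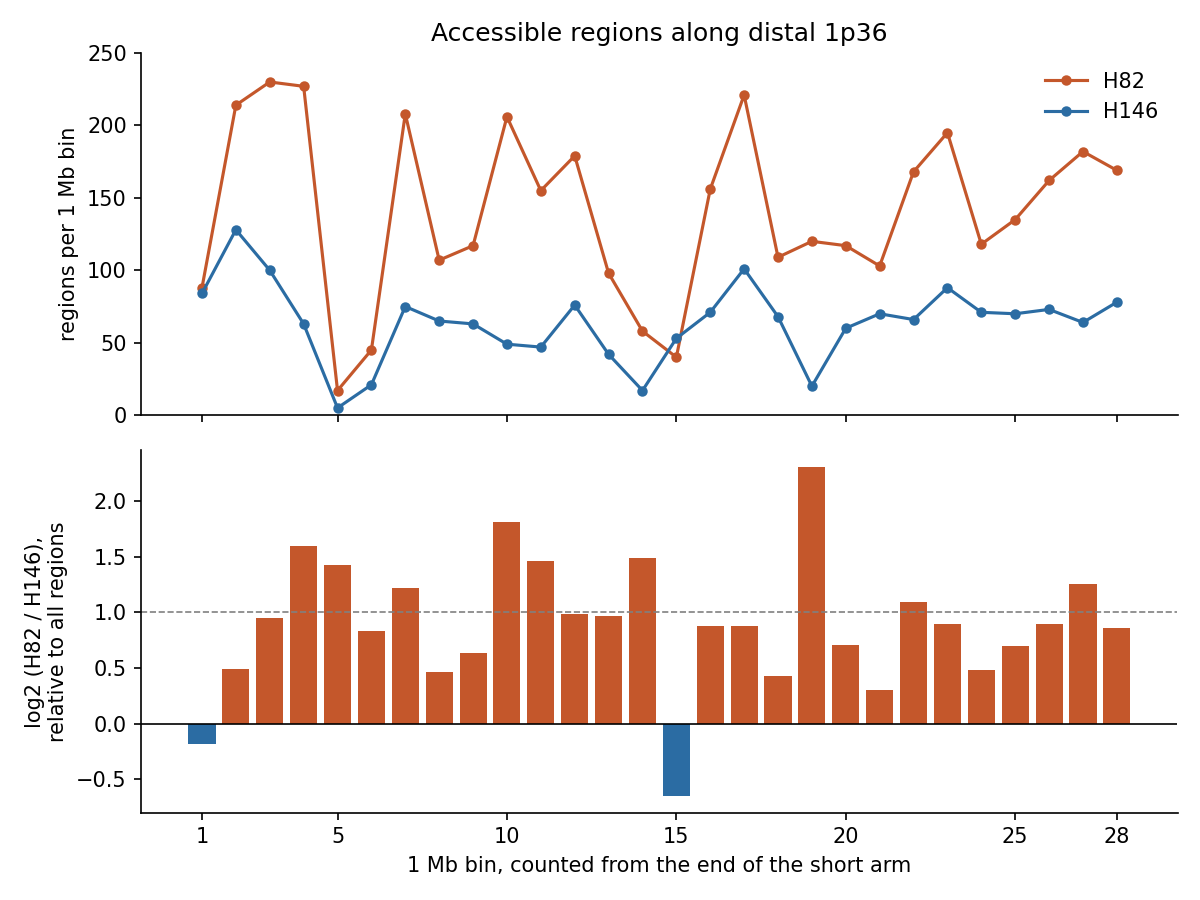
Upper panel, number of accessible regions per 1 Mb bin (vertical axis) in H82 and H146; lower panel, log2 ratio of the lines relative to all regions, with a dashed line at 1. The horizontal axis counts the 28 bins from the end of the short arm; bin 19 has the highest ratio (2.31) and bins 1 and 15 are the ones below 0.

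The contrast did not stop at 28 Mb. The last bin inside had 169 H82 and 78 H146 regions (0.86) and the first bin outside had 122 and 53 (0.95). The last H82 region inside was an H82-only one of 1102 bp and the first outside an H82-only one of 200 bp, while the last H146 region inside (384 bp) and the first outside (1284 bp) were both shared. From 28 to 56 Mb the log2 ratio was 0.64. From 28 to 126 Mb, where the assembly has its gap beside the centromere, it was 0.40 (counting interval 0.35 to 0.46), and from 143 Mb to the end of the long arm it was 0.04 (0.0013 to 0.09). When each chromosome was cut from its start into pieces of 28 Mb, distal 1p36 ranked 1 of 96 by this ratio. It was followed by 28 to 56 Mb of chromosome 15 (0.76) and 28 to 56 Mb of chromosome 1.

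Sharing was lopsided. Of the H82 regions in distal 1p36, 1321 (33.5%, Wilson 95% interval 32.0% to 35.0%) were overlapped by an H146 region, and of the H146 regions 1482 (82.9%, 81.1% to 84.6%) were overlapped by an H82 region. In the rest of the genome these shares were 59.8% and 70.4%. On the rest of chromosome 1 they were 51.6% and 70.9%. The line-only share in distal 1p36 was therefore 66.5% in H82, against 40.7% over the whole H82 atlas, and 17.1% in H146, against 29.5%. Among the 96 pieces of 28 Mb, distal 1p36 had the lowest shared percentage of H82 regions and the second highest of H146 regions.

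Bin by bin, the shared percentage of H82 regions ran from 12.5% (18 to 19 Mb) to 67.5% (14 to 15 Mb), with a median of 33.8%. In H146 it ran from 50.9% to 99.2%, with a median of 78.5%. In the bin from 1 to 2 Mb, which includes DVL1, a WNT pathway adaptor, and several TNF receptor genes, 127 of the 128 H146 regions were overlapped by H82.

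**Figure D3:**
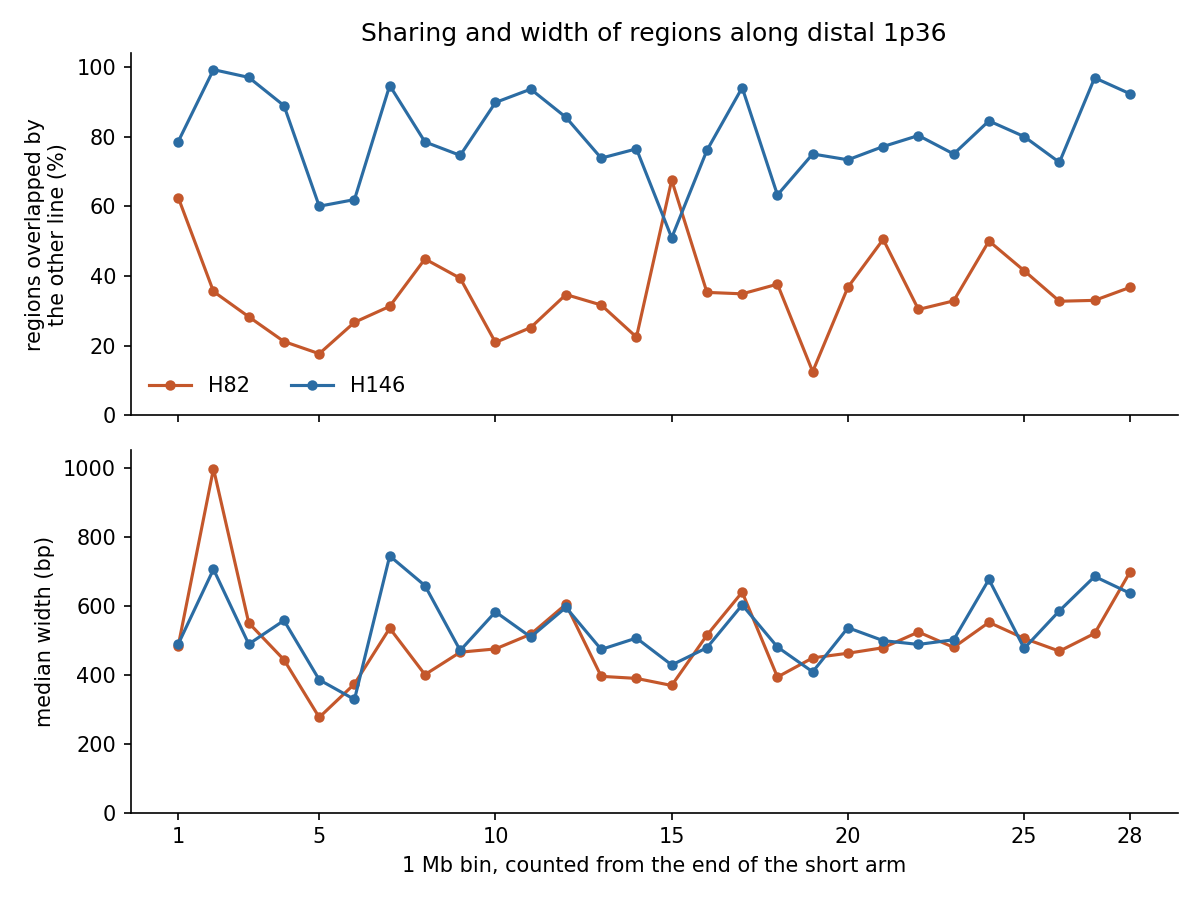
Percentage of regions overlapped by the other line (upper panel) and median region width in base pairs (lower panel) by 1 Mb bin from the end of the short arm (horizontal axis), for H82 and H146. In the upper panel H82 lies below H146 in 27 of the 28 bins, and in the lower panel the medians run from 276 to 997 bp in H82 and 328 to 744 bp in H146.

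Sharing depended on width and position. H82 regions of exactly 200 bp, the narrowest in either list, were shared at 5.00% in distal 1p36 and at 40.4% elsewhere. The shares then were 18.1% against 48.9% for wider ones under 500 bp, 37.0% against 64.2% from 500 bp to under 1 kb, 50.3% against 78.2% from 1 kb to under 2 kb and 78.0% against 91.4% for 2 kb or more. The lower sharing of H82 regions was thus present in every width class. In H146, 64.5% of the 200 bp regions were shared against 42.3% elsewhere, and 100% of the 122 regions of 2 kb or more. At promoters, that is within 1 kb of a coding TSS, 84.0% of H82 and 99.2% of H146 regions were shared, against 92.0% and 96.5% elsewhere.

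**Figure D4:**
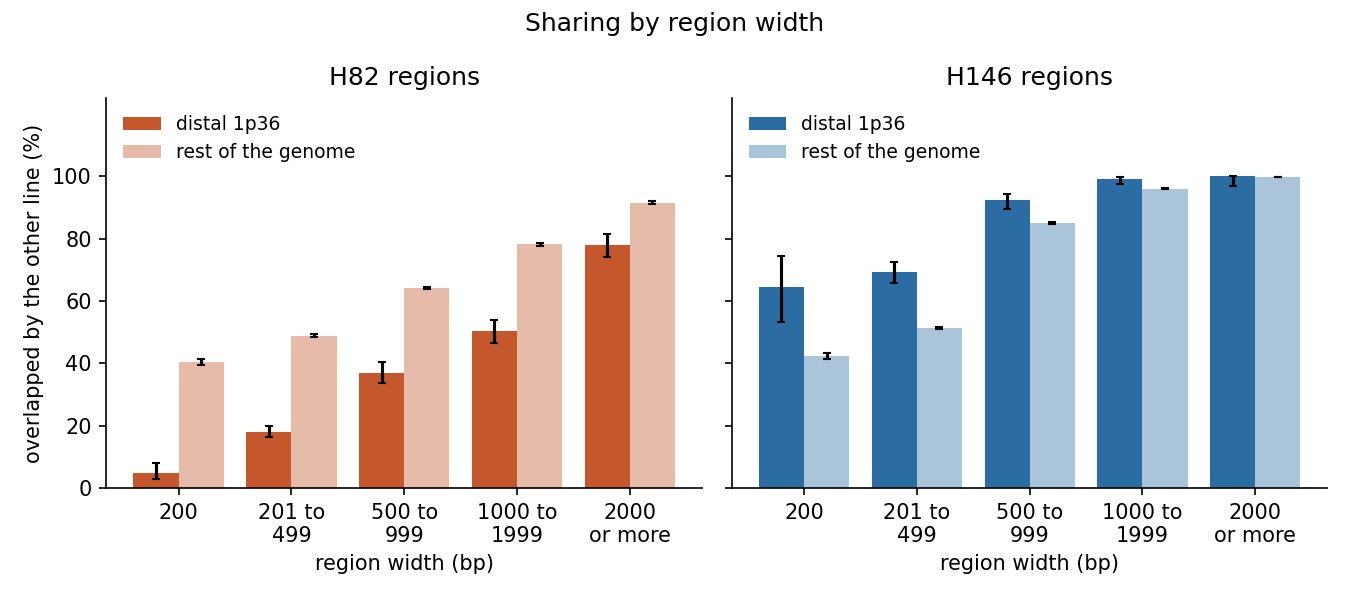
Percentage of regions overlapped by the other line (vertical axis) by region width in base pairs (horizontal axis), for H82 and H146, in distal 1p36 (dark bars) and the rest of the genome (pale bars), with Wilson 95% intervals that cover counting error only. H82 bars of distal 1p36 are below those elsewhere in all 5 width classes (5.00% against 40.4% at 200 bp), and H146 bars are not.

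Stretches between neighbouring H146 regions were also examined for the H82 regions they held. There were 904 such stretches with at least 1 H82 region, of which 150 had 5 or more and 32 had 10 or more. Stretches with 5 or more numbered 5.42 per Mb, against 0.785 in the rest of the genome, and held 30.6% of the H82 regions, against 8.02%. Since H82-only regions were frequent here, such stretches are another view of the same contrast. In the converse direction 264 stretches without an H82 region held H146 regions, and none of them had more than 3, while elsewhere 0.111 per Mb had 5 or more. A stretch of 208 kb from ACTRT2 into PRDM16 and another of 926 kb over the PRAMEF cluster each held 35 H82 regions without an H146 region. The stretch over PAX7 (217 kb) held 31, and the one from IGSF21 to KLHDC7A (325 kb) held 24. SKI, a co-repressor of TGF-beta signalling, GPR157, SPSB1 and GNB1 had stretches with 19, 17, 15 and 14.

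The median width of all regions was alike in both lines, 496.5 bp in H82 (quartiles 296 and 1122) and 526.5 bp in H146 (343 and 1007). Among shared regions it was not. Shared H82 regions had a median of 1076 bp, against 607 bp elsewhere, and shared H146 regions had 640 bp, against 662 bp. Line-only regions had medians of 386 bp in H82 and 330 bp in H146. In 1198 pairs in which a single region of each line overlapped a single region of the other, H82 had a median of 957 bp against 634.5 bp for H146. The H82 region was the wider one in 63.8% of these pairs, against 25.4% elsewhere in the genome, 41.3% on chromosome 17 and 33.6% on chromosome 19. It was at least 2-fold wider in 25.8%, against 7.22% elsewhere.

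Regions of 2 kb or more numbered 454 in H82 (11.5%, against 6.93% elsewhere) and 122 in H146 (6.82%, against 6.99%). Of these, 100 H82 regions and 0 H146 regions were line-only. Distal 1p36 held 24 of the 286 H82 regions of 10 kb or more in the genome (8.39%, against 1.91% of all H82 regions). Of the 24, 17 lay between 1 and 3 Mb. All 24 were shared and their median was 12.6 kb. H146 had 1 region of that size in the stretch. The 3 widest H82 regions measured 33.5 kb over SAMD11 and NOC2L, 21.5 kb over PLCH2 and PANK4, and 21.5 kb over TMEM88B and VWA1. They overlapped 5, 5 and 2 H146 regions, which covered 75.5%, 10.5% and 19.8% of it. The same SAMD11 and NOC2L locus carried the widest H146 region, of 13.5 kb, and SAMD11 the second, of 9.81 kb. The third, of 6.35 kb, was intergenic.

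The widest H82-only regions were an intergenic one of 6.13 kb, one of 6.06 kb in AHDC1, an AT-hook gene, and one of 5.66 kb that overlapped RER1 and PEX10. Their H146-only counterparts were 1.10 kb in an intron of ECE1, which encodes endothelin-converting enzyme, the 1.06 kb site near ACTL8 printed above, and 1.02 kb in PLA2G2C.

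H82-only regions of distal 1p36 lay in introns in 54.4% of cases, against 46.9% of those elsewhere, in exons in 11.1% against 5.67%, and between genes in 34.5% against 47.4%. Promoters took 1.91% (50 regions), against 1.39%. Their median GC content was 56.7%, against 48.0% elsewhere. H146-only regions had 50.3% against 46.8%, and 2 of the 306 were at promoters.

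Consensus words were searched on both strands in the central 200 bases of every region, and a match is a description, not a bound site. CAGATG was found in 19.4% of H82-only regions in distal 1p36 and 25.3% of those elsewhere. The OTX2 word TAATCC was found in 15.9% against 28.2%. The GC box word was found in 13.3% against 8.16% and the Alu word in 10.4% against 7.23%. For TAATCC and CAGATG the gap was narrower between regions of like GC content. Among H82-only regions with more than 50% and up to 60% GC, TAATCC was found in 18.3% in distal 1p36 and 21.2% elsewhere, and CAGATG in 20.1% and 23.3%. The GC box excess was not kept across GC classes, with 11.6% against 9.86% in this class but 20.5% against 26.2% above 60% and up to 70% GC and 3.67% against 4.39% above 40% and up to 50%. The Alu word was found in 13.4% against 11.5%, 5.04% against 5.23% and 12.8% against 6.55% in these 3 classes. The FOXA word TGTTTAC was found in 1.22% of regions found in H82 alone and 8.50% of those found in H146 alone, against 2.57% and 7.12% elsewhere. TAATCC was found in 3.59% of the H146-only regions, against 8.08% elsewhere. CAGCTG was found in 18.1% of the H82-only set (16.6% elsewhere) and 21.2% of the H146-only set (17.4% elsewhere). The CTCF word was found in 2.25% (1.45% elsewhere) and 4.25% (2.86% elsewhere) of these sets, the H146-only set being 306 regions. The CAGCTG excess of H82-only regions was not kept across GC classes. In the 3 classes, in the order above, CAGCTG was found in 17.6% against 19.7%, 21.3% against 22.2% and 15.3% against 14.9%. The CTCF word was found in 2.41% against 1.68%, 1.84% against 2.62% and 2.04% against 1.22%.

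Genes were then taken by their TSS. Among the 393 protein-coding genes, the TSS had a region in both lines at 285 (72.5%) and in neither at 63. H82 alone had one at 44 genes (11.2%), against 5.1% of all 20033 coding genes, and H146 alone at 1 (0.254%), against 1.86%. The H146 gene was CA6, a secreted carbonic anhydrase. Its H82 regions were not far off, the nearest lying 3.31 kb from the TSS. Of the 44, 15 had no H146 region within 10 kb, and 20 had an H146 region within 1 kb of the start of another annotated transcript of the gene. Among these 20 were GPR157, PRDM16, RUNX3, RPL22, PLCH2 and PIK3CD.

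**Figure D5:**
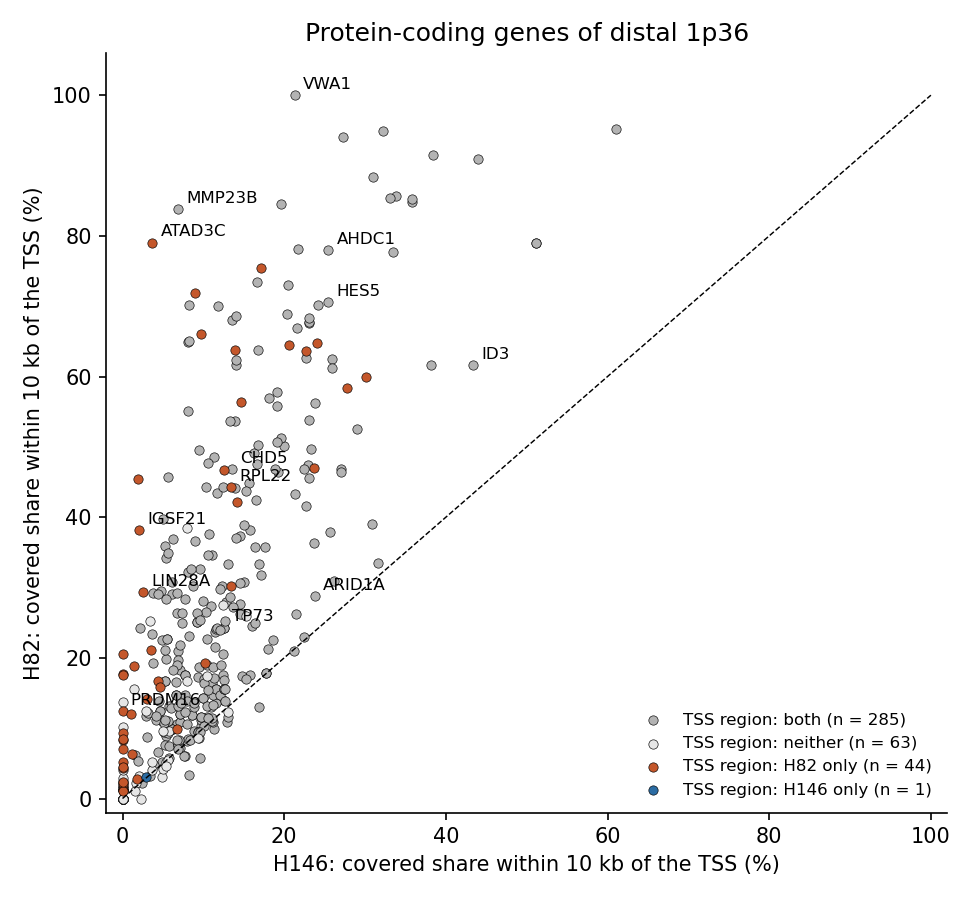
Percentage of bases within 10 kb of the TSS that lie in regions, in H82 against H146, 1 point per coding gene of distal 1p36, coloured by which line had a region at the TSS, with a dashed line of equality. Of the 393 genes, 340 lie on the H82 side and 24 on the H146 side.

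Coverage around the TSS leaned the same way. The covered share of the bases within 10 kb of the TSS had a median of 18.2% in H82 and 9.23% in H146. It was higher in H82 at 340 of 393 genes (86.5%), against 52.6% of all coding genes. H82 had at least 3 regions more within 10 kb at 109 genes (27.7%, against 7.61% of all coding genes) and H146 at 4 (1.02%, against 1.99%). At the 285 genes with a TSS region in both lines, the medians of its width were 2242 bp (H82) and 1425 bp (H146). It was wider in H82 at 247 of them (86.7%, against 43.2% elsewhere).

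The H82-only TSS genes with the most covered sequence included a group in the first 3 Mb. ATAD3C, a mitochondrial ATPase gene with near-identical neighbours, had 79.0% of the 10 kb on either side of its TSS covered in H82 and 3.68% in H146. MXRA8, a cell-surface adhesion protein, had 75.4% and 17.1%, and the H82 region at its TSS measured 11236 bp. TTLL10 had 71.9% and 9.01%, and PERM1, a regulator of muscle metabolism, had 59.9% and 30.2%. HSPB7, a small heat shock protein, had 64.5% and 20.6%. FCN3, a lectin of the complement system, had 64.8% and 24.1%, and MASP2, a serine protease of the same pathway, had 45.5% and 1.94%. SCNN1D, a subunit of the epithelial sodium channel, had 58.4% and 27.8%.

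H146 regions were often near, both for the genes just named and for the rest of the group. The nearest lay 1.11 kb from the TSS at FCN3 and 1.29 kb at ATAD3C, but 9.23 kb at MASP2. At RPL22, a ribosomal protein gene, the nearest H146 region lay 1.65 kb from the TSS, and coverage was 44.2% in H82 and 13.4% in H146. PLCH2, a phospholipase C of neurons, had 5 regions within 10 kb in each line but 56.4% and 14.7% covered. ZNF593OS (47.0% and 23.6%) is transcribed opposite ZNF593 and FAM110D (42.2% and 14.2%) lies close to it. MMEL1, a metallopeptidase, had 30.2% and 13.4%. LIN28A, an RNA-binding protein that blocks let-7 processing, had 6 regions and 29.3% in H82 against 1 region and 2.53% in H146. PIK3CD, a catalytic subunit of PI3-kinase, had 7 regions and 21.1% against 1 and 3.56%.

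At 21 genes (5.34%, against 2.27% of all coding genes) the gene body with 10 kb on either side held regions in H82 only. Of these, 11 were among the 22 PRAMEF genes of the stretch, a cluster of near-identical copies. Flanks of neighbouring PRAMEF genes overlap, so the same region can count for several of them. The excess over the share of all coding genes rests largely on this cluster. The other genes of the 21 were PAX7 (21 regions), LDLRAD2 (8), AKR7L (7), ACTRT2 (5), LRRC38 (5), CFAP107 (3), AKR7A3 (2), KLHDC7A (2), UTS2 (1) and CORT (1). AKR7L and AKR7A3, aldo-keto reductase genes, are close copies of each other. UTS2 and CORT encode the peptide hormones urotensin and cortistatin. OR4F5, an olfactory receptor gene with copies near other chromosome ends, was the single gene with the reverse pattern (0.254%, against 0.849%), with 1 H146 region.

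The largest differences in coverage were those of VWA1, an extracellular matrix gene (100% in H82 and 21.3% in H146), MMP23B, a metalloproteinase (83.9% and 6.88%), ATAD3C, TNFRSF18 (94.1% and 27.3%) and C1QTNF12 (84.5% and 19.6%). At TNFRSF18, also called GITR, H82 had 3 regions and H146 had 6, and the H82 region at the TSS measured 12593 bp against 1579 bp in H146. The largest differences in the other direction were small. RNF186, a ubiquitin ligase gene of the gut, had 3.28% in H82 and 8.23% in H146, KAZN had 5.74% and 9.59%, IL22RA1, a cytokine receptor subunit, had 13.0% and 16.9%, OR4F5 had 0% and 2.33%, and FAM43B had 10.9% and 12.9%. Over KAZN with 10 kb on either side H82 had 65 regions and H146 had 70.

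Known genes of the band were grouped into 12 lists with 94 genes in all. Both lines had a TSS region at 71, H82 alone at 13, H146 alone at 0 and neither at 10. H82 had at least 3 regions more within 10 kb at 27, H146 at 1, and coverage was higher in H82 at 87. These shares stand beside those of the 393 genes given above, where coverage was higher in H82 at 86.5%. Nothing particular to the lists is read from them, here or below.

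Of the 14 tumour-suppressor candidates, 12 had a TSS region in both lines and 2, RPL22 and RUNX3, in H82 only. H146 had a region within 1 kb of another annotated start of each of these 2 genes. Coverage was higher in H82 at all 14. CHD5 had 46.9% of the bases within 10 kb of its TSS covered in H82 and 13.5% in H146, with 32 and 9 regions over the gene and its 10 kb flanks. TP73, a p53 family factor, had 24.3% and 12.6%, with 31 and 10 regions over the gene and flanks. RUNX3, a Runt-domain factor, had 3 regions within 10 kb in H82 and 0 in H146, whose nearest region lay 25.1 kb away, and 24 against 4 over the gene and flanks. CASZ1, a zinc finger factor, had 34.2% and 5.41%, KIF1B had 18.3% and 7.11%, and MIIP had 6 regions against 1. ARID1A had 2 regions in each line, covering 28.8% and 23.8%.

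All 5 HES and Notch-pathway genes had a TSS region in both lines and higher coverage in H82. HES5, a direct Notch target of neural progenitors, had 5 regions in each line, covering 70.6% in H82 and 25.4% in H146. HES4 had 3 in each line and 62.5% against 25.9%, HES3 had 61.7% against 38.2%, and HES2 had 9 regions against 4. SPEN, a co-repressor of the Notch effector RBPJ, had 24.6% against 16.1%.

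Of the 12 developmental regulators, 3 had a TSS region in H82 only, 8 in both lines and 1, PAX7, in neither, and all 12 had higher coverage in H82. PRDM16, a zinc finger methyltransferase of brown fat and neural stem cells, had 6 regions within 10 kb of its TSS in H82 and 0 in H146, and the nearest H146 region lay 66.5 kb away. Over the gene and its 10 kb flanks the counts were 79 and 7. H146 did have a region within 1 kb of another annotated start of PRDM16. ID3, an inhibitor of basic helix-loop-helix factors, had 7 regions against 3, covering 61.6% and 43.3%.

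Of the 16 neuronal and synaptic genes, 13 had a TSS region in both lines, 2 in H82 only (IGSF21 and PLCH2) and AJAP1 in neither. IGSF21 had 36 regions over the gene and its 10 kb flanks in H82 and 3 in H146. GABRD, a GABA receptor subunit, had 7 regions within 10 kb against 2, GNB1, a G protein subunit, had 7 against 3, PRKCZ, an atypical protein kinase C, had 7 against 4, KCNAB2, a potassium channel subunit, had 5 against 1, HTR6, a serotonin receptor, had 8 against 2, and STMN1, stathmin, had 4 against 1. AJAP1 (5.26% in H82 and 5.41% in H146) and VAMP3 (9.87% and 11.3%) were the 2 of the 16 with lower coverage in H82. Of the 12 chromatin regulators, 11 had higher coverage in H82, among them RERE (6 regions against 2) and PHF13 (4 against 1), and HP1BP3, which binds heterochromatin, had 10.9% against 11.2%.

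Of the 11 signalling genes, 8 had at least 3 regions more within 10 kb in H82. The share among all 393 genes was 27.7%, and the list was picked with earlier results known. These 8 were PIK3CD, the ephrin receptors EPHA2 (6 against 3), EPHA8 (5 against 2) and EPHB2 (6 against 3), the kinases RPS6KA1 (6 against 1) and FGR (9 against 3), the GTPase CDC42 (4 against 1) and WNT4 (5 against 2). DVL1 had 3 regions against 5 and 91.5% against 38.4% covered. Of the 7 TNF receptor genes, TNFRSF4, also called OX40, and TNFRSF25, a death receptor, had a TSS region in H82 only, with 63.8% against 13.9% and 46.8% against 12.6% covered. TNFRSF1B had 2.25% against 2.37%.

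Of 5 PADI genes, which encode peptidylarginine deiminases, PADI3 and PADI6 had a TSS region in H82 only and 3 had higher coverage in H82. Of 6 phospholipase genes of the PLA2G2 and PLA2G5 cluster, 5 had no TSS region in either line. The 3 C1Q genes, subunits of complement C1, all had higher coverage in H82, with C1QA at 27.6% against 12.4%. Of the 4 peptide hormone genes, UTS2 and CORT had a TSS region in H82 only and NPPA and NPPB in both lines. The 12 housekeeping genes had higher coverage in H82 without exception, and RPL22 was the one with a TSS region in H82 only. Among them RER1 had 6 regions against 2 and PGD 6 against 1.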

How the data were processed

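ATAC-seq libraries of H82 and H146 (13 samples) were represented by 2 deposited lists of region starts and ends in base pairs on hg38, 1 pooled list per line. Per the study's methods, the authors trimmed reads with Trim Galore 0.4.4, aligned them with bowtie2 2.3.4, removed duplicates with Picard, called regions per sample with MACS2, removed blacklisted regions and merged regions within 500 bp. The unit of the deposited values is a genome position (other: start and end in base pairs). The smallest gap between regions was 501 bp in both lists. No heights, counts or values per library were used here, so depth is unknown, no test was run, and the planned FHD-286 comparison, which the authors made with DESeq2 and a batch covariate in H146, is not analysed here. There were 0 unused columns of per-sample values.

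Python 3.11.15, numpy 2.4.6, pandas 2.3.3 and scipy 1.17.1 were used, and overlaps were checked with bedtools 2.31.1. Regions were called shared when 1 bp or more lay in a region of the other line. Bins of 1 Mb took regions by their centre and needed at least 10 regions; 0.5 was added to each count before the ratio. TSSs were gene 5′ ends of protein-coding genes in GENCODE 44 on the same build. Sequences were read from that hg38 genome. Intervals are 95% (Wilson for shares, exact binomial for ratios) and cover counting error only. Mitochondrial regions (2) were left out. Scripts were tested on simulated data.

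Genes named are those with a TSS region in a single line, up to 20 for H82 and 10 for H146 by covered bases within 10 kb, those with body regions in a single line, list members that differed at the TSS or by at least 3 regions, TP73, CHD5, ARID1A, RUNX3, HES5 and PRDM16, and the 5 largest coverage differences per direction. Other list members are named as examples. The stretch, lists and rules were chosen with earlier results of these data known. Some genes and a sequence that these rules select are not reported here.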

Additional observations from a re-analysis of the deposited data

How the results depend on the processing

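The stretch was richer in H82 regions under each alternative run, and no result turned direction. The log2 ratio of 0.89 was 1.20 by covered bases and 0.70 relative to chromosome 1 beyond 28 Mb. It was 0.19 for promoter regions only and 0.99 for regions over 1 kb from a coding TSS, each relative to the same class over the genome. The other 5 alternatives gave 0.85 to 0.92. When regions had to overlap by 50% of both, 20.6% of H82 and 45.5% of H146 regions were shared. With regions of at least 500 bp these shares were 37.7% and 85.3%, and 84.6% of H146 regions lay within 500 bp of an H82 region. The median width was 549 bp in H82 without regions of 200 bp, and 463 bp in H82 and 474 bp in H146 without promoter regions. The 44 genes with a TSS region in H82 only became 29 with a window of 5 kb, 27 with 10 kb and 28 with the starts of all transcripts, which by construction admit more regions; the cause was not tested further. The share of bins past a log2 ratio of 1 was 32.1% with bins of 1 Mb, 45.5% with 500 kb and 42.9% with 2 Mb. The share over all bins of the genome is given for 1 Mb only. No paired analysis was possible because each line is a single pooled list without replicate numbers, and no replicate could be left out for the same reason. Without values per library, the depth behind a missing region is unknown, so a region absent from a list was not called in that line, which does not show closed chromatin.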
